A study of Mus musculus with 16 samples.

Results

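Interferon-stimulated genes are described here in double-positive (DP) thymocytes, the cells of the thymus that carry both CD4 and CD8 and in which T cell receptors are selected. The set holds 40 genes chosen by symbol, of 55335 gene identifiers in the libraries with an age and 54532 in those without one. All 40 were found in both kinds of file, and they lie on 14 chromosomes. In each fit 39 of them held enough reads to be tested, and Ifi44 did not.

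RNA came from thymic DP cells of mice sorted by flow cytometry, in 16 libraries. By their labels 4 libraries were old WT, 3 young WT and 3 young METTL3 KO, and a further 3 WT and 3 METTL3 KO libraries carried a genotype and no age. They give no age in weeks, no Cre driver and no strain, and nothing in them says that replicates came from separate mice, so the p-values reflect only how far these samples vary, which may be technical. METTL3 is the catalytic subunit of the enzyme that places N6-methyladenosine on RNA.

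Interferons are secreted alarm proteins. Type I interferons signal through IFNAR1 and IFNAR2 and the kinases JAK1 and TYK2 to a complex that holds STAT2 and IRF9 and binds the interferon-stimulated response element (ISRE) of its target genes. Type II interferon, encoded by Ifng, signals through IFNGR1 and IFNGR2, and many of its target genes carry the gamma-activated site (GAS). The target genes block viral replication, load peptides onto MHC class I and carry the signal further. In the thymus, interferons made by epithelial and dendritic cells are known to act on developing thymocytes.

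The promoters of the set are shown first, since these letters are what interferon factors are known to read. RefSeq (GRCm38.p6) gave a window of 300 bases around the transcription start for 31 of the 40 symbols. The 9 others are Ifi27l2a, Parp9, Rtp4, Oas2, Mx2, Usp18, Mx1, Nlrc5 and Parp14. The letters GAAA, then any 2 letters, then GAAA, the core of the ISRE, occurred on either strand in 14 of the 31 genes, against 3.99% of all 27025 symbols in the table. The letters TTCNNNGAA of the GAS occurred in 8 of the 31, against 9.55% of all symbols. The 8 genes were Bst2, Gbp7, Ifi35, Ifit2, Igtp, Oas1a, Psmb8 and Samhd1, and a match of one kind could overlap a match of the other, as in Bst2. A match is a description of the letters and not a measured binding site, and none of these data measure binding.

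Igtp, the only gene of the set called with age, and Stat2 and Isg15, both called between the genotypes without an age, hold the core. Dtx3l, Irf7 and Samhd1, also called without an age, had a window with no core. Gbp2 and Gbp7 held the core and were called lower there. The 250 bases before the start are printed for Igtp, Stat2 and Isg15. They run 5′ to 3′ on the gene's strand, with ISRE core letters in capitals (a TTTC pair is the same core read on the other strand).
Igtp (chr11:58199306-58199555, + strand): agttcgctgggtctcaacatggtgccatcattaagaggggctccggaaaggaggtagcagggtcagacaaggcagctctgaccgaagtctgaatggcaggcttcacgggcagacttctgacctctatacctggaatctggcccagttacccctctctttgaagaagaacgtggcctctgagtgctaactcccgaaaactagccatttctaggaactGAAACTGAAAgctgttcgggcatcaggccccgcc
Stat2 (chr10:128270248-128270497, + strand): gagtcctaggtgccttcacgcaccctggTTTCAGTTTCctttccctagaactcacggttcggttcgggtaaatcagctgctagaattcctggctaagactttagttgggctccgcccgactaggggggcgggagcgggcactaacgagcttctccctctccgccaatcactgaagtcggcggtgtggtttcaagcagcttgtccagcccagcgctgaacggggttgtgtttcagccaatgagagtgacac
Isg15 (chr4:156200819-156201068, - strand): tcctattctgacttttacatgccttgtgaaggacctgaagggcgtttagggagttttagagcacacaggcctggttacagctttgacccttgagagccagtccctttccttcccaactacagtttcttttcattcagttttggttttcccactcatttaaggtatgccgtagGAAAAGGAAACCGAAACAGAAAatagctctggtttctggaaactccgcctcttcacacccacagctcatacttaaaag

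Igtp held its ISRE core at position -34 from the start and GAS letters at -45. Isg15 held 3 overlapping cores, and Stat2 a single core at -222 from the RefSeq start. That start lies upstream of the annotated start of Stat2 at 128270559 of mm10. The end of the Stat2 window was found in no annotated transcript of the gene, so its positions are less certain. For the other 11 genes with the core, the 30 bases around 1 match each are given, in the order of the roles used below, with that match in capitals.
Trim30a (chr7:104465210-104465239, - strand): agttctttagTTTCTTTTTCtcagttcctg
Oas1a (chr5:120907520-120907549, - strand): tcgggaaatgGAAACTGAAAatctacttcc
Oas3 (chr5:120777715-120777744, - strand): gcagggaggaGAAAACGAAAgtgaagggag
Ifit1 (chr19:34640794-34640823, + strand): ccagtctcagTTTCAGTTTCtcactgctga
Ifit3 (chr19:34583397-34583426, + strand): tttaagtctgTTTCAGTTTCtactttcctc
Rsad2 (chr12:26456553-26456582, - strand): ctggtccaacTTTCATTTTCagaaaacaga
Bst2 (chr8:71537577-71537606, - strand): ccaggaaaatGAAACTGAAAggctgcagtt
Gbp2 (chr3:142620594-142620623, + strand): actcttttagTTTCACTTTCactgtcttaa
Gbp3 (chr3:142559989-142560018, + strand): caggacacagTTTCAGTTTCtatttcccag
Gbp7 (chr3:142530273-142530302, + strand): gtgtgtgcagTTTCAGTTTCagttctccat
Irgm1 (chr11:48871425-48871454, - strand): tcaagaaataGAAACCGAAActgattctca

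The letters between the repeats were the same in several of them: GAAACTGAAA or its reverse complement stood in Igtp, Stat2, Oas1a, Bst2, Gbp3, Gbp7, Ifit1 and Ifit3.

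Each library with an age held 9781368 to 10307780 reads in genes, against 15927134 to 16167074 in WT without an age and 10575795 to 13740694 in METTL3 KO without an age. The share left unaligned was 50.5% to 52.2% without an age and 0.577% to 0.826% with one. Reads outside genes made up 7.23% to 15.03% of entries without an age and 47.5% to 51.2% with one. Levels of the 40 genes were therefore compared only within a set. Levels are CPM, gene counts divided by library size, scaled by TMM, a normalization for library composition. Markers of DP cells were high in every library, with 9 markers summing to 11068 to 14731 CPM in libraries with an age, 13741 to 15427 in WT without an age and 7375 to 9095 in METTL3 KO without an age. Old WT replicate 3 stood apart from the other 9 libraries with an age: the 13 B cell markers summed to 2157 CPM (442 to 1015 in the others), the 11 dendritic cell markers to 932 (50.9 to 138) and the 11 myeloid markers to 269 (27.3 to 41.9). The Mettl3 gene, read as a check of the labels, had 63.8 ± 3.66 CPM (SD, n = 3) in young WT and 63.7 ± 1.33 (n = 3) in the libraries labelled young METTL3 KO. Reads outside a deleted part would not show a deletion, and the labels do not name the deleted part. Without an age it was 48.9 ± 4.96 in WT and 32.7 ± 5.82 in METTL3 KO (n = 3 each, log2 change -0.58 ± 0.18, adjusted p = 0.0189).

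The set spanned a wide range of levels in young WT cells. Per length of exon (RPKM, the CPM per kilobase), Psmb8, a catalytic subunit of the immunoproteasome, was highest at 63.4 ± 0.954 (SD, n = 3). Igtp, an interferon-inducible GTPase, followed at 34.2 ± 2.09, then Trim25, a ubiquitin ligase of the RNA-sensing pathway, at 23.4 ± 0.879 and Tap1, a subunit of the peptide transporter, at 20.6 ± 1.40. The gaps from Psmb8 to Igtp, from Igtp to Trim25 and from Trim25 to Tap1 exceeded the SD of both neighbours, and the gap from Tap1 to Bst2 (19.2 ± 2.46) did not. At the low end of the order, Oas2 (0.395 ± 0.329), Mx1 (0.333 ± 0.171) and Oasl2 (0.213 ± 0.0364) did not differ from their neighbours by more than the spread, except that Ifi44 (0.0215 ± 0.00887) lay below Oasl2. Of the 39 gaps in this order, 16 exceeded both SDs. Ifit2, a member of the IFIT family of RNA-binding proteins, was at 14.1 ± 0.637 RPKM, far above Ifit1 (1.24 ± 0.0813) and Ifit3 (1.01 ± 0.0992).

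**Figure D1:**
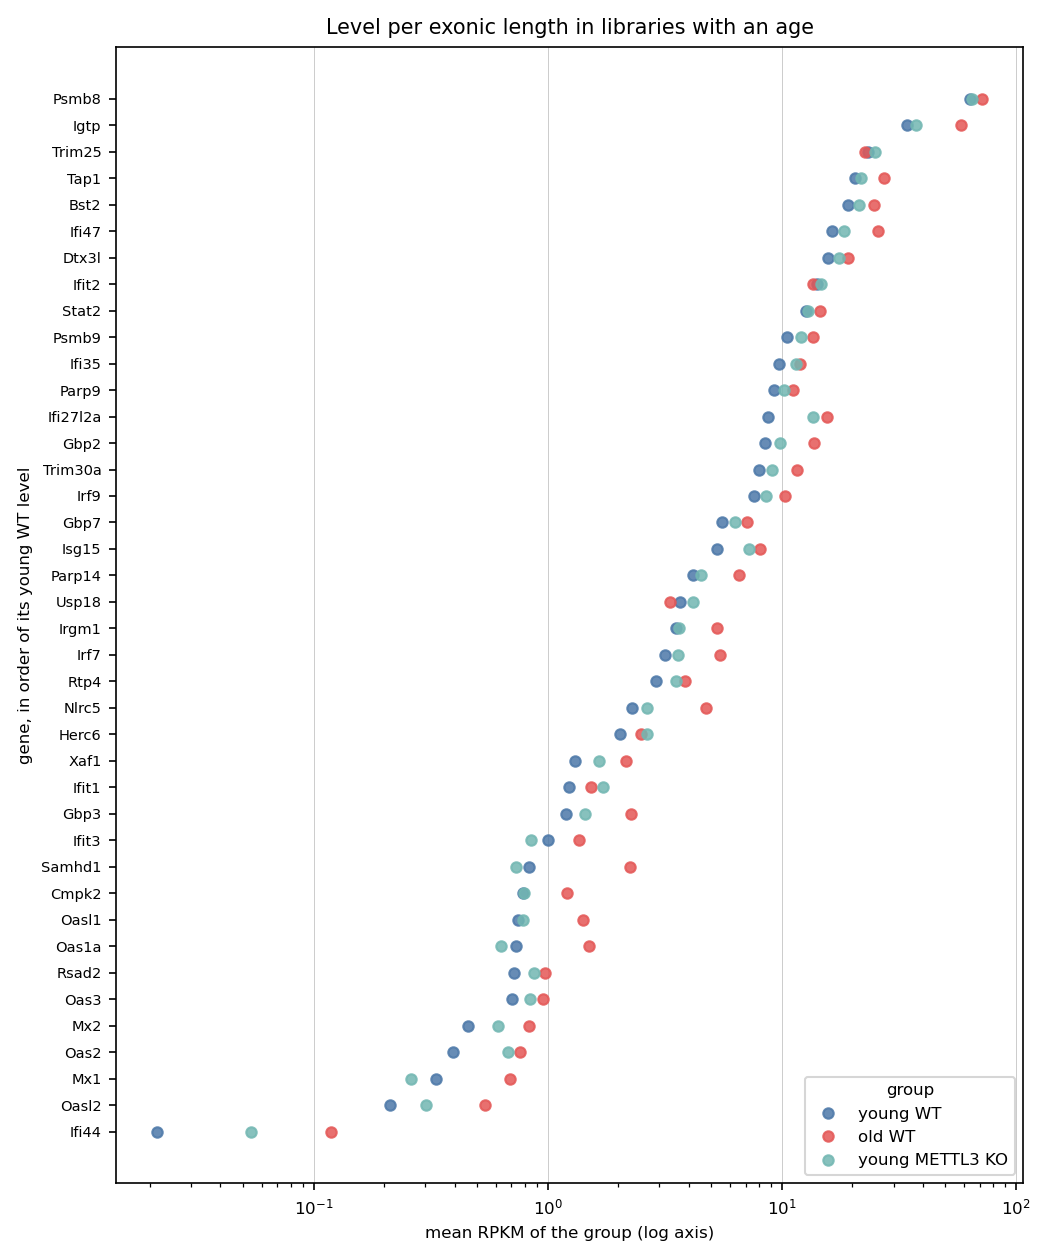
Mean RPKM of each gene (horizontal, log axis) in the libraries with an age (young WT, n = 3, old WT, n = 4, METTL3 KO, n = 3), ordered by the young WT level. Psmb8 and Igtp stand at the top of all 3 groups, and Ifi44 at the bottom.

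Old and young WT libraries differ in the age of the mice. With age, 1 gene of the set rose: Igtp, which protects against intracellular parasites and sits on the endoplasmic reticulum, was higher in every old library. Most of the others had values above young WT that did not pass the test: 36 of 39 log2 changes lay above 0, against 51.1% of all 14228 genes tested, and their median was 0.53 against 0.01 over all genes. Of all genes 0.127% were called higher and 0.253% in either direction, at an adjusted p under 0.05 by edgeR's quasi-likelihood test with Benjamini-Hochberg adjustment over all genes. At an unadjusted p under 0.05, 15 of the 39 were higher, against 7.41% of all genes, and none was lower. In 10 genes every old library lay above every young WT library, against 5.65% of all genes, and in none did every old library lie below, against 4.13%. Those 10 were Stat2, Nlrc5, Herc6, Parp14, Xaf1, Gbp2, Gbp3, Igtp, Ifi47 and Tap1. Since the genes were listed with results of these data known, these counts describe the set and do not test it.

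Igtp had 67.1, 66.2 and 73.9 CPM in young WT and 101, 105, 151 and 117 in old WT. The groups did not overlap, and the lowest old library was well above the highest young one. The log2 change was 0.78 ± 0.13 (1.71-fold, adjusted p = 0.0224). The call was lost when any 1 of the 3 young WT libraries was left out (adjusted p = 0.131, 0.218 and 0.12) and when the 2 groups were fitted alone (0.114), with the change itself between 0.64 and 0.84 over all 15 alternatives. Without old WT replicate 3 it was 0.64 (adjusted p = 0.00788). Igtp lies on chromosome 11 at 58199556 to 58207591 of mm10 and shares 162 bp of exon on the same strand with its neighbour Irgm2, another GTPase of the family. Irgm2 had 10.7 CPM in young and 25.4 in old WT (log2 change 1.25 ± 0.26, adjusted p = 0.0985).

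The interferon-inducible GTPases held the called gene and several with small unadjusted p-values. They act on the membranes around intracellular pathogens. All 6 had a log2 change above 0, with a median of 0.67, 5 had an unadjusted p under 0.05, and in 4 the groups did not overlap. Gbp2, a guanylate-binding protein, had 22.6, 19.7 and 21.7 CPM in young WT and 31.6, 38.2, 41.4 and 27.1 in old WT. Here too each old library exceeded each young one, and the log2 change was 0.69 ± 0.14 (adjusted p = 0.077), which did not pass. DESeq2 called it (adjusted p = 0.00323). Ifi47, an immunity-related GTPase, had 37.6, 39.8 and 44.7 CPM in young and 50.3, 51, 101 and 51.6 in old WT (0.64 ± 0.23, adjusted p = 0.337). Only old WT replicate 3 reached the 101, while the other 3 old libraries lay close together just above young WT. Gbp7 was the 1 gene of this group that old WT replicate 3 did not lead, with 38.4, 44.3, 31.4 and 44.9 CPM in old WT.

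Among the ISG15, ubiquitin and ADP-ribose enzymes, 6 of 8 had values above 0 with a median of 0.29 and none was called. Parp14, a mono-ADP-ribosyltransferase, had 44, 35.6 and 37.5 CPM in young and 48.5, 54.2, 85.8 and 56.5 in old WT. The groups did not overlap and the log2 change was 0.65 ± 0.17 (adjusted p = 0.209). Herc6, which attaches ISG15 to proteins in the mouse, had 18.4, 19 and 19.3 CPM in young and 23.2, 25.3, 23.2 and 21.3 in old WT, a small but even difference (0.30 ± 0.11, adjusted p = 0.332). Usp18, which removes ISG15 and restrains the type I receptor, and Trim25 were the genes of this group with a value below 0.

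The transcription factors were all above 0, with a median of 0.61. Irf9, the DNA-binding partner of Stat2, had 45.9, 36.4 and 41 CPM in young and 54.2, 57.8, 67.9 and 42.3 in old WT (0.43 ± 0.14, adjusted p = 0.296). Old WT replicate 4 lay within the young range. Nlrc5, the transactivator of MHC class I genes, stood at 17 to 21.3 CPM in young WT, at 28.3, 29.8 and 21.8 in 3 old libraries and at 80.9 in old WT replicate 3. In antigen processing, Tap1 had 121, 107 and 110 CPM in young and 139, 145, 189 and 123 in old WT (0.40 ± 0.13, adjusted p = 0.286). Xaf1, an interferon-induced partner of the apoptosis inhibitor XIAP, had 6.23, 5.91 and 6.25 CPM in young and 10.9, 8.92, 14.2 and 6.66 in old WT (0.73 ± 0.23, adjusted p = 0.284). The groups of Tap1 and Xaf1 did not overlap, although the old WT replicate 4 values came close to young WT.

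The antiviral genes at low levels showed no gene past the test and no gene whose groups stayed apart. The oligoadenylate synthetase family, whose active members make a second messenger for RNase L, had a median log2 change of 0.94 over 5 genes, and the IFIT and MX genes 0.42 over 5. Both medians rested on wide spreads. Oasl2 had 1.56, 1.1 and 1.41 CPM in young and 2.05, 1.98, 9.03 and 0.676 in old WT. Samhd1, which breaks down the nucleotides a retrovirus needs, had 7.98, 7.72 and 7.25 CPM in young and 7.82, 12.7, 56.8 and 4.64 in old WT. In both genes old WT replicate 3 was the highest library with an age and old WT replicate 4 the lowest.

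**Figure D2:**
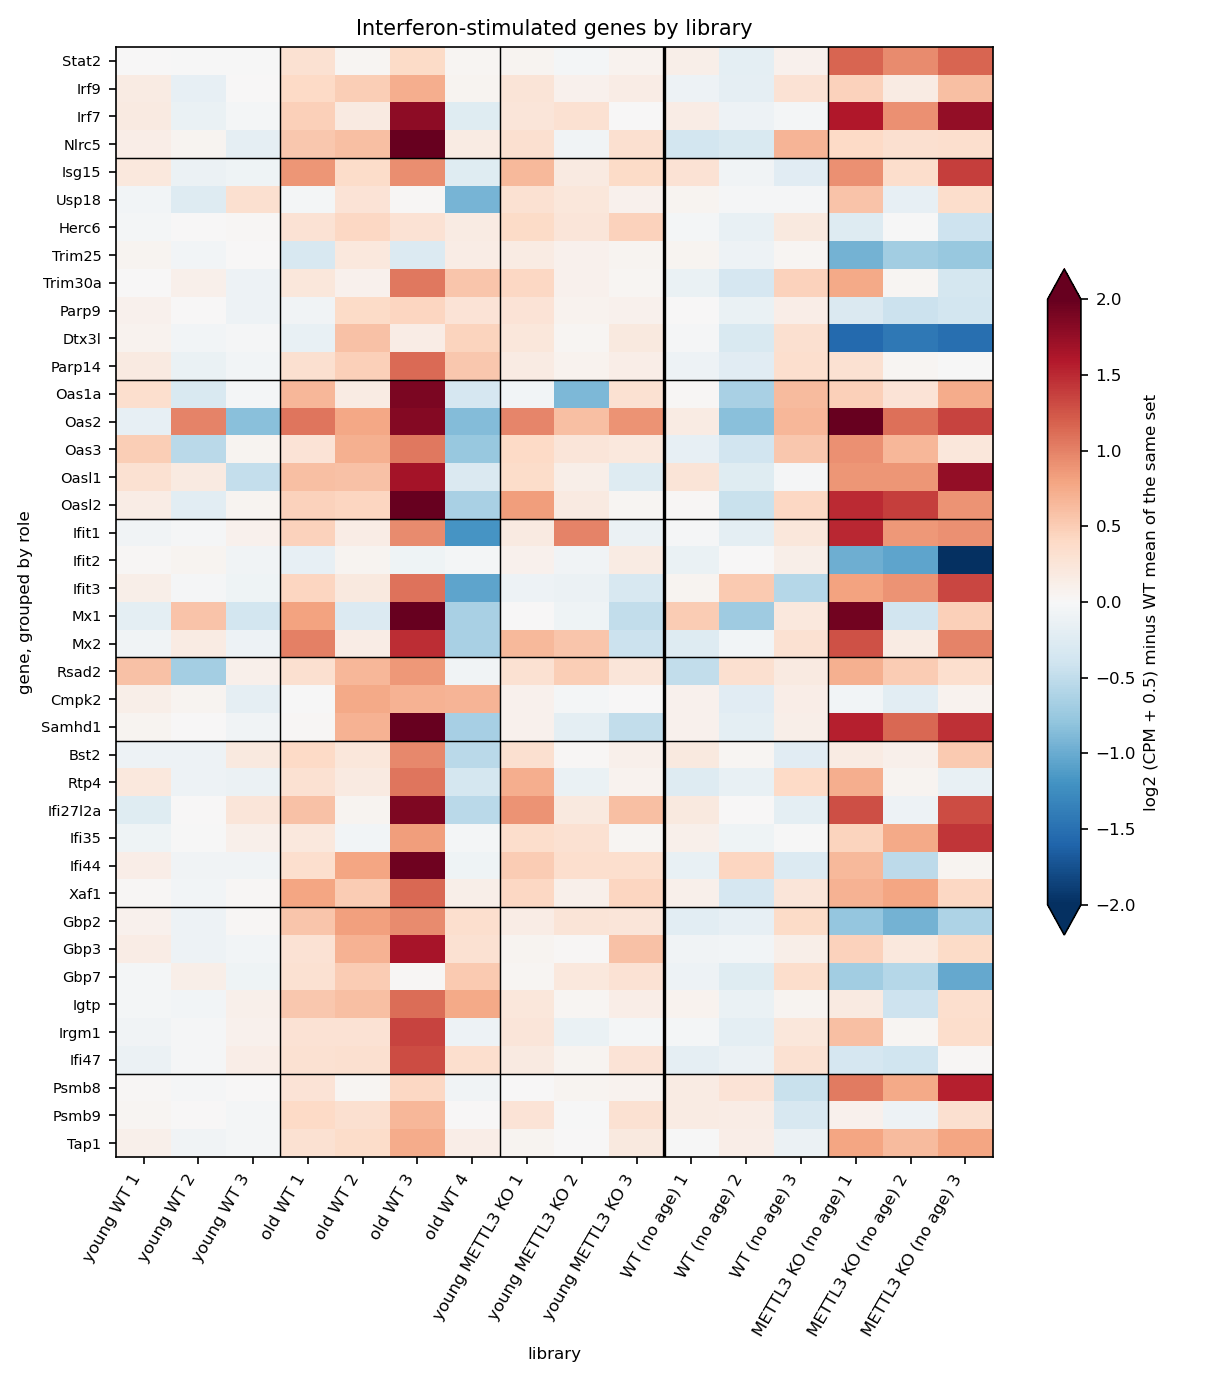
Level of each of the 40 genes (rows, grouped by role) in each of the 16 libraries (columns), as log2 (CPM + 0.5) minus the mean of young WT for libraries with an age and of WT for those without. The old WT replicate 3 column is red in nearly all rows, and METTL3 KO without an age shows red and blue rows side by side.

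The old libraries differed among themselves more than the young ones did. Old WT replicate 3 was the highest of the 10 libraries with an age in 32 of the 40 genes, and old WT replicate 4 the lowest in 16. Above every young WT library stood 31 genes in old WT replicate 1, 30 in replicate 2, 36 in replicate 3 and 16 in replicate 4, which also had 18 genes below every young WT library. Of all genes tested 35.8%, 29.9%, 39.5% and 34.7% stood above every young WT library in old WT replicates 1, 2, 3 and 4. No share over all genes was counted for values below young WT, or for the highest and lowest library. The counts of 32, 16 and 18 are thus not read as particular to the set. The mean log2 CPM of the 40 genes was 3.61, 3.50 and 3.48 in young WT and 3.93, 3.93, 4.68 and 3.38 in old WT. The difference of 0.45 (0.01 over all tested genes) was 0.21 without old WT replicate 3 and 0.65 without replicate 4. The median log2 change of the tested genes was 0.26 without old WT replicate 3, with 35 of 39 above 0. In 11 of the 40 genes the other 3 old libraries all exceeded every young WT library, against 7.4% of all genes tested.

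Old WT replicate 3 was also the library with the most B cell, dendritic and myeloid marker reads, as given above. Its Igkc was 379 CPM (12.4 to 80.8 in the other old libraries), its Cd74 315 (18.3 to 49.4) and its Lyz2 62.8 (6.16 to 7.83), and no defining marker of these 3 lists was at 0 there. Summed B cell markers were 722 and 1015 CPM in old WT replicates 1 and 2, above all young WT libraries (442 to 498), and 491 in replicate 4, within the young WT range. The plasmacytoid dendritic list, which shares Bst2 with this set, summed to 1129 CPM in old WT replicate 3, against 1185 to 1214 in young WT, but most of that sum was Ccr9, which is high in DP cells (950 CPM there). Without Ccr9, a choice made after its values were seen, the other 7 markers summed to 178 CPM in old WT replicate 3, against 67.4 to 70.1 in young WT and 70.3 to 76.1 in the other old libraries. Siglech was 26.3 CPM there against 0.676 to 1.49 in the other old libraries. The 10 markers of mature single-positive thymocytes summed to 1355 CPM in old WT replicate 3 and to 501 to 527 in the other 3 (451 to 461 in young WT). One of them, H2-K1, is also on the list of interferon pathway genes below. It was 596 CPM in old WT replicate 3 and 86.5 to 110.5 in the other old libraries. The other markers of the list were also highest in replicate 3 among the old libraries. Interferon-stimulated genes are also expressed in the cell types of these lists, and the part of those cells in these values was not tested. In bulk samples, more cells of a type and more RNA per cell cannot be told apart.

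**Figure D3:**
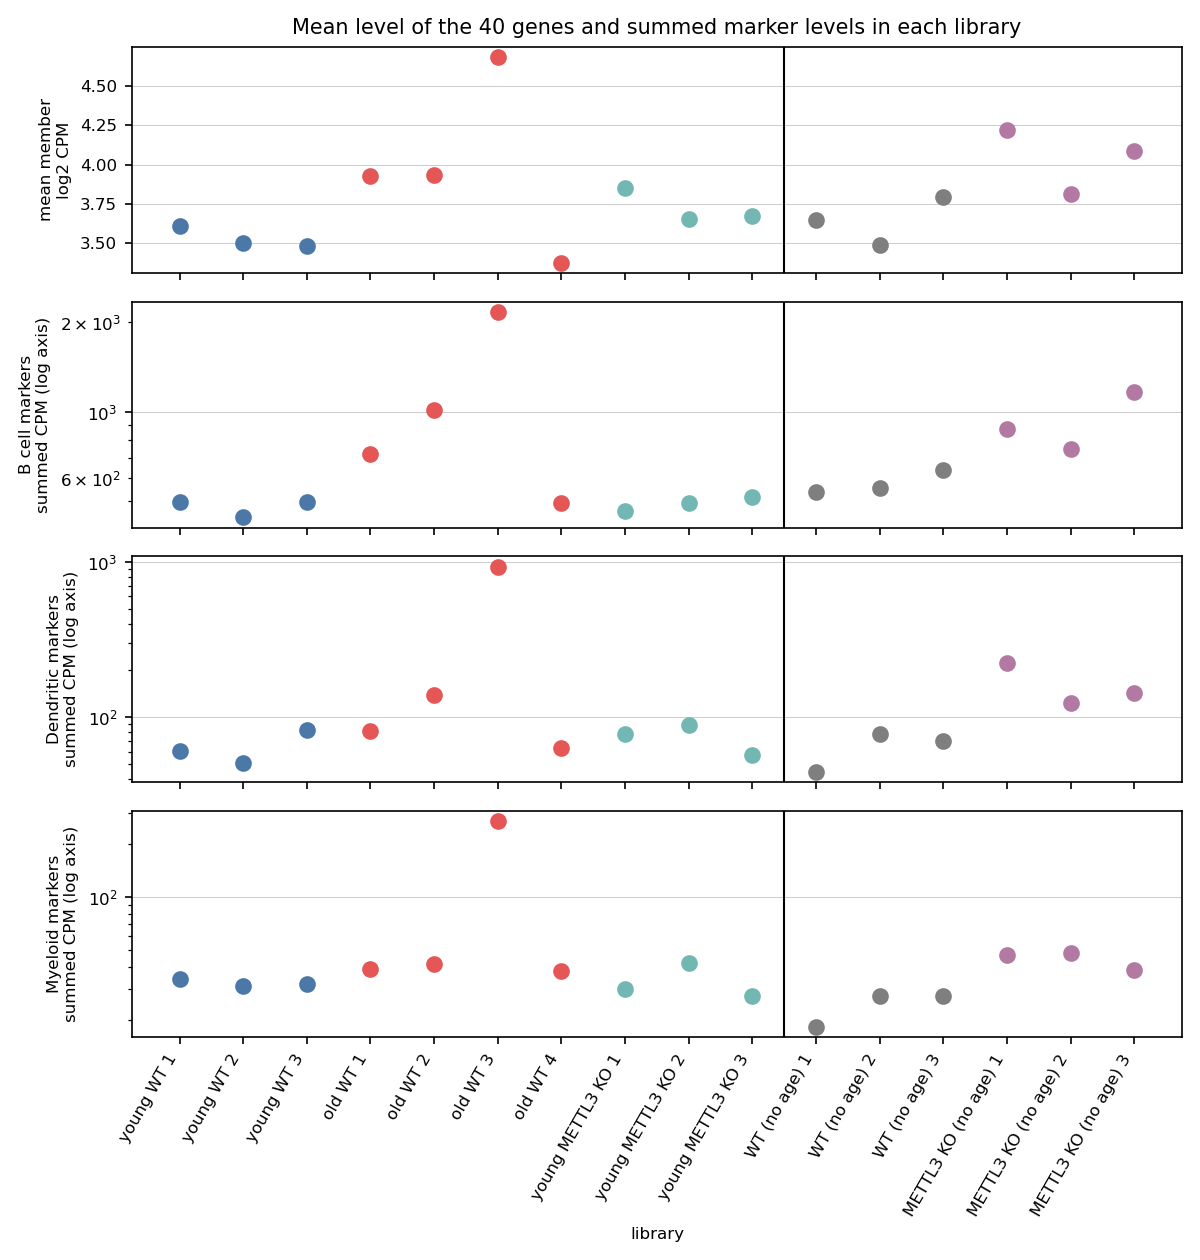
Mean log2 CPM of the 40 genes in each library (top) and the summed CPM of B cell (13), dendritic (11) and myeloid (11) markers (log axes), with one point per library and colours by group. Old WT replicate 3 is highest in all 4 panels, and old WT replicate 4 has the lowest mean of the 40 genes.

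A further list held 108 other genes of the interferon pathway, with no gene in common. None of its 80 tested genes was called with age by edgeR, 38 had an unadjusted p under 0.05 (1716 of all 14228 genes), and 77 lay above 0. Interferon genes themselves were almost unread: none of 18 was tested, and the highest count of any of them in a library with an age was 5, for Ifng in old WT replicate 3. Irf1, an early target of interferon gamma, had 49.9, 57.2 and 57.7 in young and 86.5, 79.6, 109 and 57.6 in old WT (0.60 ± 0.17, adjusted p = 0.239). Socs1, a feedback inhibitor of JAK kinases, followed another order over the libraries: old WT replicate 3, with 60.1 CPM, was the lowest old library and replicates 1 and 4 (95.9 and 93.8) the highest (0.49 ± 0.14, adjusted p = 0.248).

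The libraries labelled young METTL3 KO were compared with the same young WT libraries, so this comparison and that of age share their controls. None of the 14228 genes tested, in the set or outside it, was called by edgeR, DESeq2 or limma-voom (0%). By edgeR 1 of the 39 had an unadjusted p under 0.05, against 88 of all genes (67 by DESeq2 and 94 by limma-voom). Of all genes 0.302% were higher at that level. That gene was Herc6, with 24.9, 22.5 and 26.3 CPM against 18.4, 19 and 19.3 in young WT. All 3 libraries lay above young WT, and the log2 change was 0.38 ± 0.11 (unadjusted p = 0.0057, adjusted p = 1). The log2 changes were small and mostly on one side: 35 of 39 lay above 0 (49.7% of all genes), with a median of 0.19 (0.00 over all genes) and a range of -0.34 to 0.77. In 3 genes (Herc6, Xaf1 and Gbp2) every such library exceeded young WT, against 4.55% of all genes, and in Ifit3 every one was lower, against 4.71%.

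Gbp2 had 23.6, 25.6 and 25.2 CPM in the libraries labelled young METTL3 KO (0.22 ± 0.15), just above the 19.7 to 22.6 of young WT. Xaf1 had 8.34, 6.62 and 8.45 CPM (0.35 ± 0.24) and Isg15, the ubiquitin-like modifier, 6.55, 4.55 and 5.37 against 4.67, 3.61 and 3.73 in young WT (0.45 ± 0.31). The libraries overlapped for Isg15. Gbp7 (0.19 ± 0.14), Psmb9 of the immunoproteasome (0.20 ± 0.15), Ifi35 (0.24 ± 0.21) and Ifi27l2a (0.64 ± 0.55), both interferon-induced, had overlapping groups as well, and the adjusted p was 1 in each. Igtp, called with age, had 80.4, 70.5 and 75.6 CPM here, of which the second lay within the young WT range. The mean log2 CPM of the 40 genes was 3.85, 3.65 and 3.67, a difference of 0.19 from young WT (0.01 over all tested genes), and 0.13 without replicate 1. That replicate had 27 genes above every young WT library, and replicates 2 and 3 had 12 and 17. The share of all genes above young WT was not counted for these libraries. The counts are thus not read as particular to the set. Irf1 (0.16 ± 0.18) and Socs1 (0.05 ± 0.15) also had an adjusted p of 1, and none of the 80 pathway genes tested was called or had an unadjusted p under 0.05.

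**Figure D4:**
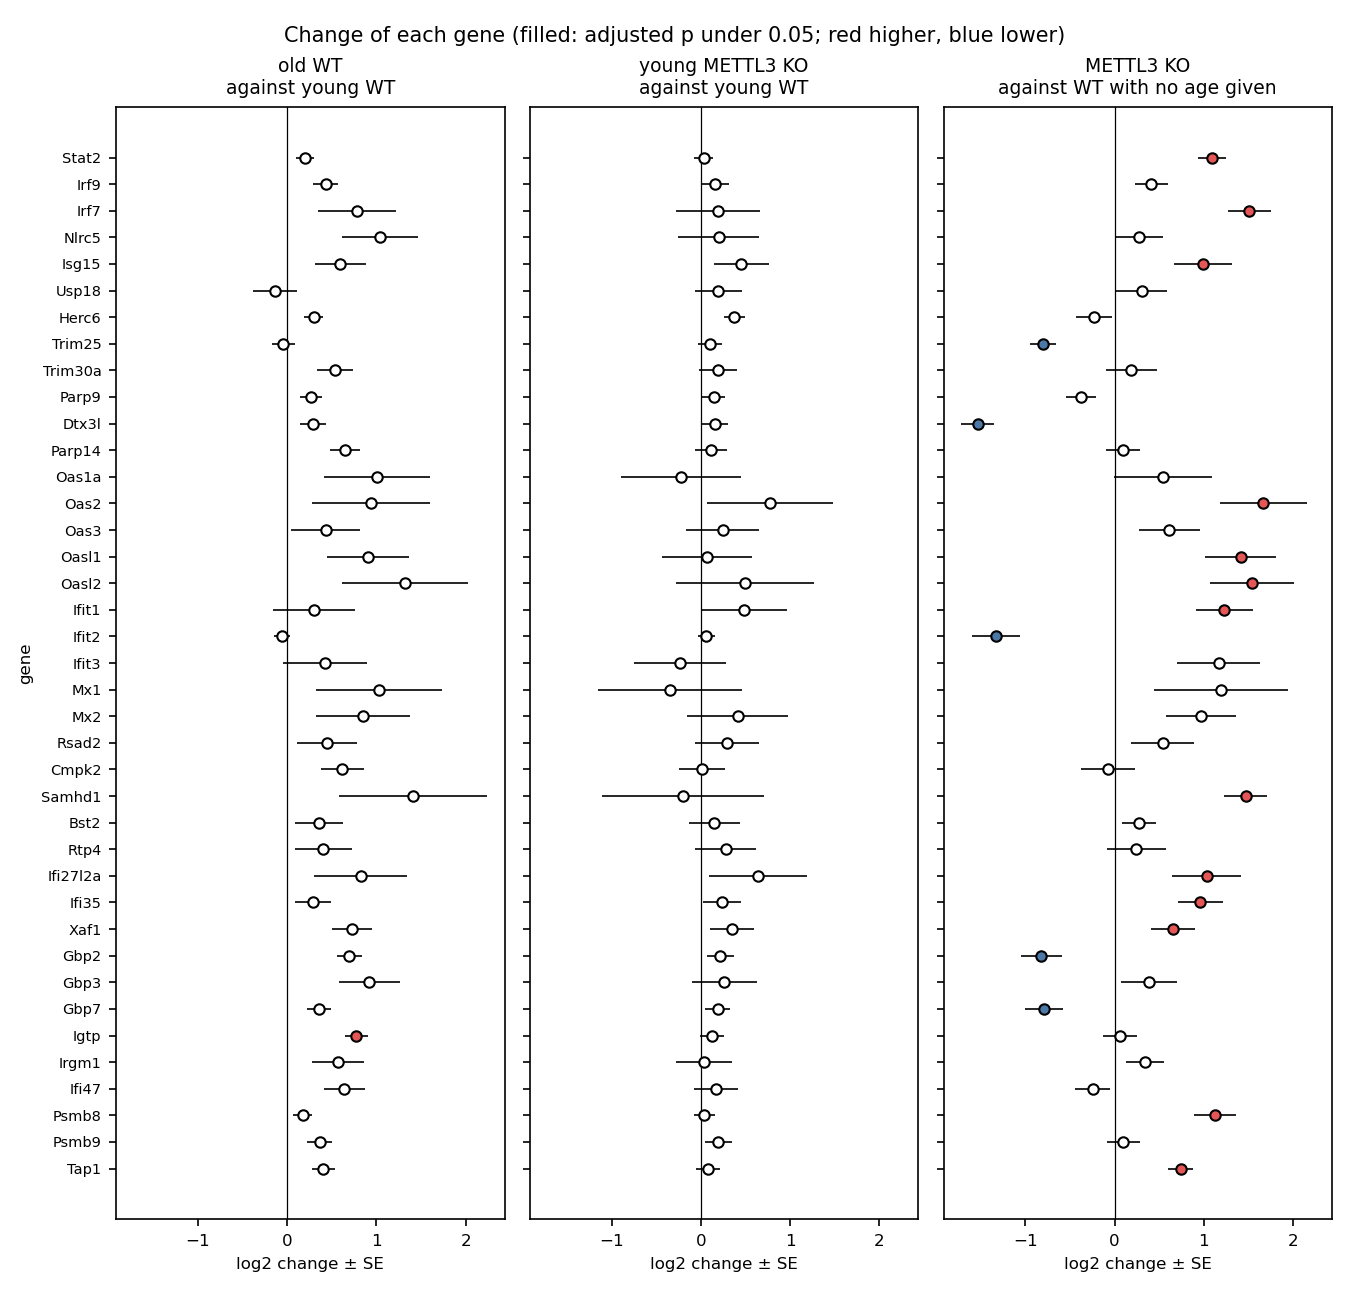
Log2 change ± SE (horizontal) of the 39 tested genes in the 3 comparisons, with called genes filled in red (higher) or blue (lower). One gene is filled for age, none for the libraries labelled young METTL3 KO, and 13 red and 5 blue for METTL3 KO without an age.

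In the libraries without an age the set split. In METTL3 KO 13 genes rose and 5 fell of 39 tested, which is 33.3% and 12.8%, against 29.9% called higher and 24% called lower (53.9% either way) among all 16432 genes. The share that rose was thus near that of all genes. The median log2 change was 0.41 (0.08 over all genes), with 30 of 39 above 0 (52.9% of all genes). In 15 genes every METTL3 KO library exceeded every WT library and in 6 every one was lower, against 34.3% and 29.5% of all genes. The mean log2 CPM of the 40 genes was 3.65, 3.49 and 3.79 in WT and 4.22, 3.82 and 4.09 in METTL3 KO, a difference of 0.40 beside 0.32 over all tested genes. The genes that rose were Stat2, Irf7, Isg15, Oas2, Oasl1, Oasl2, Ifit1, Samhd1, Ifi27l2a, Ifi35, Xaf1, Psmb8 and Tap1, and those that fell were Trim25, Dtx3l, Ifit2, Gbp2 and Gbp7.

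Of the transcription factors 2 of 4 rose. Stat2 had 108, 87.4 and 105 CPM in WT and 225, 193 and 223 in METTL3 KO. The groups were far apart, and the log2 change was 1.09 ± 0.15 (2.13-fold, adjusted p = 0.000254). Irf7, the factor that amplifies type I interferon, had 12.1, 10.1 and 10.5 CPM in WT and 34, 20.9 and 37.9 in METTL3 KO (1.51 ± 0.24, adjusted p = 0.000522). Irf7 shares 45 bp of exon with Phrf1 on the opposite strand, which was higher as well (0.58 ± 0.15, adjusted p = 0.00768).

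Among the ubiquitin and ADP-ribose enzymes the called genes went in both directions. Dtx3l, a ubiquitin ligase that works in a complex with Parp9, showed the smallest p of the set. It had 84.7, 69.7 and 107 CPM in WT and 29, 31.4 and 29.9 in METTL3 KO, a fall of 2.89-fold with the METTL3 KO libraries nearly equal (-1.53 ± 0.19, adjusted p = 0.00014). Its partner Parp9, with which it shares 458 bp on opposite strands, had 37.6, 33.8 and 40.7 CPM in WT and 30.3, 27.5 and 28.7 in METTL3 KO. Those groups did not overlap either, but Parp9 was not called. Trim25 had 157, 142 and 157 CPM in WT and 78.4, 93.7 and 89.2 in METTL3 KO (-0.80 ± 0.15, adjusted p = 0.00102). Isg15 was the 1 gene of this group that rose, from 4.17 to 6.20 CPM in WT to 6.48 to 13.7 in METTL3 KO.

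The oligoadenylate synthetase family gave 3 rises of 5 genes (Oas2, Oasl1 and Oasl2), all at low levels, with a median log2 change of 1.41 over the group. Oasl1 had 1.65 to 2.55 CPM in WT and 4.20 to 8.16 in METTL3 KO. Within the IFIT family the calls went both ways: Ifit1 rose, from 2.80 to 3.91 CPM in WT to 6.39 to 10.2 in METTL3 KO, while Ifit2 fell. Ifit2 had 41.5, 45.6 and 49.5 CPM in WT and 22.9, 21.6 and 9.98 in METTL3 KO (-1.33 ± 0.27, 2.51-fold lower, adjusted p = 0.00195). Ifit1 and Ifit2 lie close together on chromosome 19, at 34640871 to 34650009 and 34550694 to 34576419 of mm10. Samhd1 had 6.14, 4.96 and 6.25 CPM in WT and 17.9, 13.3 and 16.8 in METTL3 KO, a rise with tight groups (1.47 ± 0.24, adjusted p = 0.000608).

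None of the 6 GTPases was called higher, and the guanylate-binding proteins Gbp2 and Gbp7 were called lower. Of the 6 log2 changes 3 lay above 0. In Gbp3 every METTL3 KO library (4.38 to 5.29 CPM) exceeded every WT library (3.53 to 4.10) without a call. Gbp2 had 19.1, 19.7 and 29 CPM in WT and 12.7, 11.3 and 14.4 in METTL3 KO. Gbp7 had 40.8, 36.8 and 55.9 in WT and 26.8, 29.3 and 21.2 in METTL3 KO. In both genes the 2 groups did not overlap. Igtp, with 115, 101 and 115 CPM in WT, had 125, 82.3 and 139 in METTL3 KO, spread on both sides of WT. Of antigen processing, Psmb8 and Tap1 rose and Psmb9 did not pass. Psmb8 had 172, 186 and 113 CPM in WT and 317, 259 and 454 in METTL3 KO (1.13 ± 0.24, adjusted p = 0.00214), and Tap1 had 149, 165 and 139 and 261, 234 and 260 (0.74 ± 0.14, adjusted p = 0.00145). Psmb9 shares 212 bp with Tap1 on opposite strands and stood at 38.2 to 53.6 CPM in WT and 44.5 to 59.6 in METTL3 KO. Of the other induced genes Ifi35, Ifi27l2a and Xaf1 rose. The 8 genes of this comparison with a fold change and its adjusted p above kept their calls under all 13 alternatives.

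**Figure D5:**
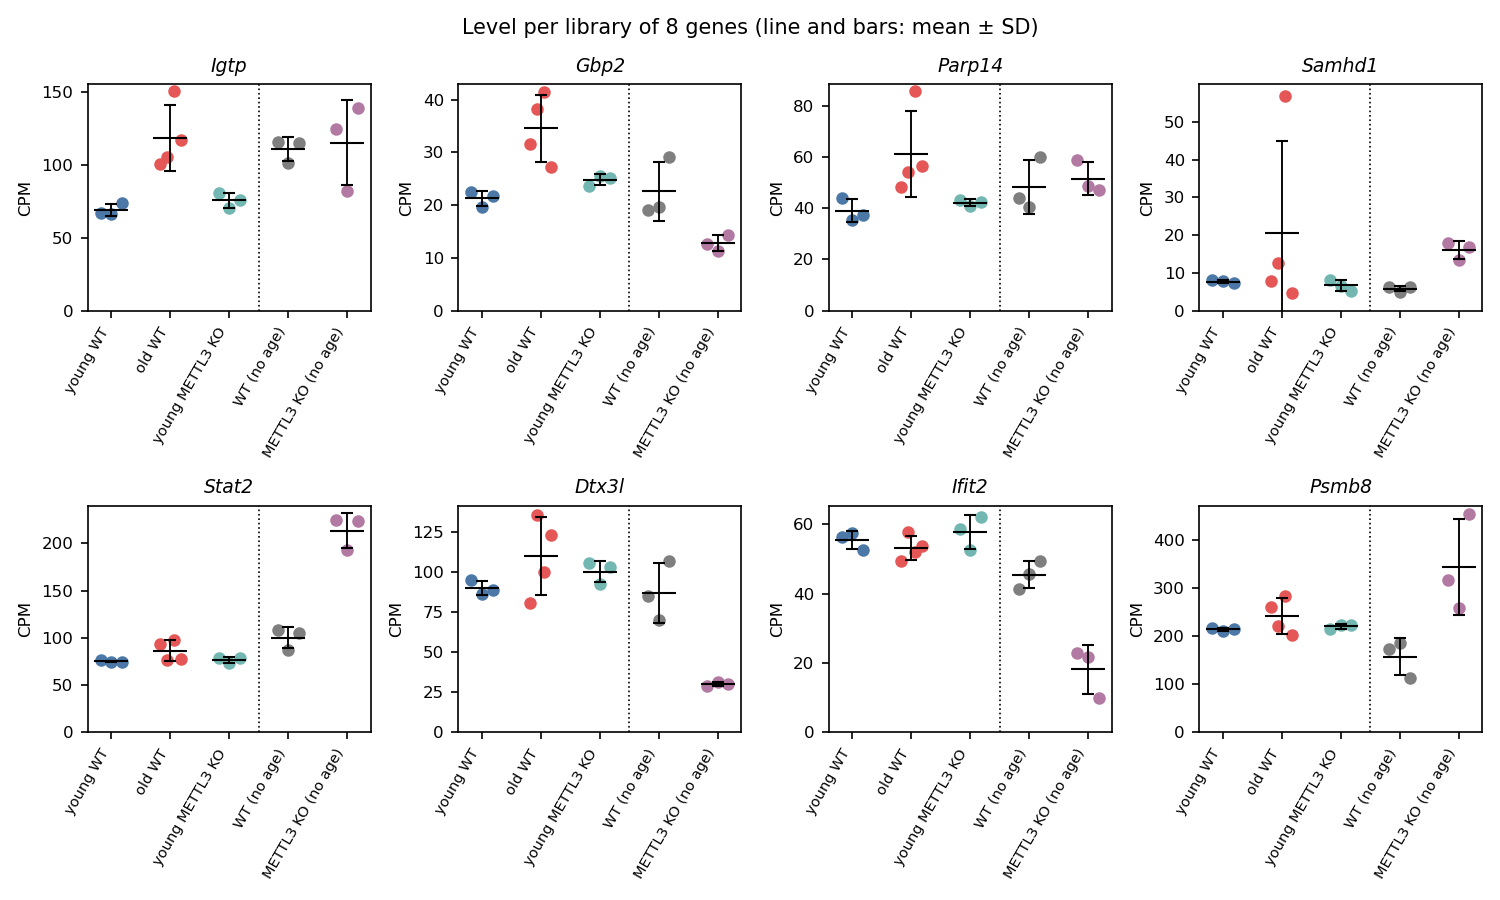
CPM of 8 genes in each library (points), with the mean ± SD of each group (line and bars), and a dotted line between the libraries with and without an age. Igtp and Gbp2 stand higher in old than in young WT, Samhd1 has 1 old library far above the rest, and the WT and METTL3 KO libraries without an age stand apart for Stat2, Dtx3l, Ifit2 and Psmb8.

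Other measures moved with the genotype in the libraries without an age. Of the 9 DP markers 5 fell in METTL3 KO (Cd4, Rag1, Rag2, Cd3e and Themis), while 8 of 11 tested B cell markers, 7 of 9 dendritic markers and 3 of 9 myeloid markers rose, in a comparison that called 29.9% of all genes higher and 24% lower. Summed B cell markers were 537 to 636 CPM in WT and 746 to 1166 in METTL3 KO, dendritic markers 44.3 to 77.7 and 123 to 222, and myeloid markers 18.2 to 27.3 and 38.4 to 47.6. Clec9a and Batf3, of the dendritic list, and Cd14, of the myeloid list, were at 0 in all WT libraries without an age. Reads outside genes made up 7.23% to 7.60% of entries in WT and 11.85% to 15.03% in METTL3 KO. The part of these differences in the values of the set was not tested.

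The 82 tested genes of the pathway list gave 19 rises and 15 falls, which is 23.2% and 18.3%, below the 29.9% and 24% of all genes. Of the receptors Ifngr1 fell and Ifngr2 rose (-0.53 ± 0.17 and 0.57 ± 0.17), and of the kinases Jak1 (-1.20 ± 0.16) and Jak2 (-0.90 ± 0.16) fell and Tyk2 rose (0.60 ± 0.14). Ifng was read 4, 8 and 4 times in WT and 13, 24 and 32 times in METTL3 KO (log2 change 2.41 ± 0.63, adjusted p = 0.0074). Among the interferon regulatory factors Irf3 (0.73 ± 0.20) and Irf8 (1.14 ± 0.29) rose and Irf2, which opposes Irf1 at shared sites, fell (-0.97 ± 0.18). Irf1 (0.35 ± 0.36) and Socs1 (-0.13 ± 0.17) did not pass, while Socs3, a related feedback inhibitor, rose (1.23 ± 0.20). Tap2, the partner of Tap1 in the peptide transporter, rose by 1.05 ± 0.17 on the log2 scale, the immunoproteasome subunit Psmb10 by 1.00 ± 0.28 and the MHC class I gene H2-K1 by 1.04 ± 0.15. Tapbp, H2-D1 and B2m, which also serve MHC class I presentation, were not called. Irgm2 (-1.18 ± 0.23) and Zc3hav1, an antiviral RNA-binding protein (-0.96 ± 0.16), fell. The guanylate-binding protein Gbp8 rose, from 369 to 424 CPM in WT to 748 to 1064 in METTL3 KO. Adjusted p-values of the called genes here lay under the threshold of 0.05.

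Whether the genotype difference was unequal in the 2 sets was tested directly over 12 libraries, as the log2 change without an age minus that of the young libraries. Of 39 genes 8 were called with a higher difference (20.5%) and 5 with a lower one (12.8%), against 19.2% and 17.7% of all 16557 genes (36.9% either way), so the shares were again near or below those of all genes. Of the 39 values 31 lay above 0 (56.1% of all genes), with a median of 0.42 (0.14 over all genes). With any 1 young library left out, 21 to 26 of the 39 lay above 0. Their medians were then 0.08 to 0.25 (0.02 to 0.04 over all genes). The difference of Stat2 was 1.23 ± 0.14 (adjusted p = 4.14e-05), that of Dtx3l -1.51 ± 0.18 (5.81e-05), that of Samhd1 1.83 ± 0.28 (0.000249) and that of Tap1 0.82 ± 0.15 (0.000751). In the libraries labelled young METTL3 KO, Stat2 had 78.4, 72.9 and 78.8 CPM against 74.7 to 75.9 in young WT, and Dtx3l had 105, 92.5 and 103 against 86.5 to 94.8. The young libraries of the 2 genotypes overlapped in both genes. The age label, other differences between the 2 sets of libraries and any difference in the Mettl3 deletion cannot be told apart here.

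Of the 40 genes 18 share exon sequence with another gene. Gm20496, opposite Psmb8 over 498 bp, had 164 CPM in young WT and 1.14 in WT without an age, and Gm11626, opposite Ifi35 over 290 bp, had 8.13 and 0.0652, with the 2 sets normalized separately. The strand setting of the counting is not given in the sources used here, so the counts of a gene and its partner cannot be fully told apart in the libraries with an age.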

How the data were processed

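The authors deposited raw read counts per gene, 1 file per library, for 10 libraries with an age and 6 without one; HISAT2 2.0.5 and the mouse build mm10 are named per the submitters' processing notes, and neither source used here names the counter or says how strand was treated. Rows that name no gene (no feature, ambiguous, not aligned, not unique) were left out of library sizes and tests. Counts were filtered with filterByExpr, scaled by TMM and tested with edgeR 4.0.16's quasi-likelihood test (R 4.3.3), with Benjamini-Hochberg adjustment over all genes tested and a threshold of 0.05. Age and the young genotype comparison came from 1 fit of 10 libraries, the genotype comparison without an age from 6, and the difference of the 2 genotype comparisons from 12. Each ± after a log2 change is its SE and each ± after a level is an SD. CPM are counts relative to the TMM-scaled library size, log2 CPM use a prior count of 2, and RPKM divide CPM by exonic length. The genes named with full statistics are the 8 with the smallest p in each comparison and 4 in the difference, with Irf1 and Socs1 of the pathway list; a further gene of that rule is not reported here. Members and lists were chosen with earlier results of these data known. The fit was tested on simulated data. Alternatives were DESeq2 1.42.0, limma-voom (limma 3.58.1), other scalings and filters, a replicate block, a fit of only the 2 groups compared, and each library left out. No pair of replicates held identical counts.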

Additional observations from a re-analysis of the deposited data

Results flagged for a closer look

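Among the old WT libraries, 41 values were checked for 1 sample far from the others, and 2 were found, where chance gives about 1 in 20 groups. Cmpk2, a mitochondrial nucleotide kinase, had 3.22 CPM in old WT replicate 1 against 5.51 to 5.85 in the other old libraries. Ifi47 had 101 CPM in old WT replicate 3 against 50.3 to 51.6 in the others. Groups of 3 libraries were not checked in this way.

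In 13 of 39 genes, below the 36.9% of all genes called in this test, the genotype difference was unequal between the libraries without and with an age, by edgeR's interaction test with Benjamini-Hochberg adjustment over all genes. Those with a positive log2 difference were Stat2 (1.23), Irf7 (1.48, adjusted p = 0.00111), Oasl1 (1.51, adjusted p = 0.0337), Ifit3 (1.56, adjusted p = 0.0327), Samhd1 (1.83), Ifi35 (0.88, adjusted p = 0.0249), Psmb8 (1.25, adjusted p = 0.00223) and Tap1 (0.82). Those with a negative one were Trim25 (-0.73, adjusted p = 0.000929), Dtx3l (-1.51), Ifit2 (-1.21, adjusted p = 0.00705), Gbp2 (-0.87, adjusted p = 0.00939) and Gbp7 (-0.80, adjusted p = 0.0152). Ifit3 was called in this test although neither genotype comparison alone called it in the main fit. Its log2 changes were 1.17 without an age and -0.24 in the young libraries, on 13 to 60 reads per library. Its call in this test, and that of Ifi35, was lost with the replicate block and with no filter on low counts. Both were also lost when any young library of either genotype was left out. Oasl1 lost its call in the same settings, except without young WT replicate 3. Gbp7 lost its call with the replicate block. With a filter of 1 CPM in 3 libraries, the genotype comparison without an age called Ifit3.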

How the results depend on the processing

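With age, 1 gene of the set was called, against 3 with no filter on low counts, 3 by DESeq2, 2 with the replicate block and 0 with only the 2 groups compared. Leaving out 1 library gave 0 to 2. The cause was not tested. Of the alternatives for counts and means, 87 kept within the limits set for a change and 8 did not, all 8 in the count with age. Of those for single genes 521 kept direction and call, 11 passed the threshold only in the alternative and 4 only in the main analysis. Socs1 in the young genotype comparison turned from 0.05 to -0.0042 in log2 without young METTL3 KO replicate 3, in a range of -0.0042 to 0.13 over the libraries left out. Irf1 turned from 0.35 to -0.38 without replicate 2 of METTL3 KO without an age, in a range of -0.38 to 0.58. Same-numbered deviations correlated at only -0.24 to 0.08. In the age comparison replicates 1 and 3 still matched their own number best (0.04 and 0.05), and replicate 2 did not (-0.18). In the genotype comparisons no replicate matched its own number best. Groups of 3 or 4 libraries are too small to exclude pairing, so whether replicate numbers pair the samples stays undecided. With the replicate block 0 genes were called in the young genotype comparison, 15 without an age (18 without the block) and 9 for the difference of the 2 (13 without the block). Genes under about 5 CPM, which include most of the OAS, IFIT and MX genes, had SEs of up to 0.97 in log2. With such SEs a change there could go uncalled, although Oas2, Oasl1, Oasl2 and Ifit1 of these families were called higher without an age. The parts of depth and of spread between libraries in these SEs were not tested.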
